A study of Rattus norvegicus with 12 samples.

Results

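The proteasome genes of rat liver were compared between rats fed a control diet and rats fed the same kind of diet with a fungal supplement. They were taken as all array rows whose annotation names exactly 1 gene symbol made of Psma to Psmg and a number, or a symbol that starts with Psme and a number. This gave 45 transcript clusters, the probe sets of the array, for 44 genes out of 18166 genes tested, and the brighter of 2 clusters was kept for Psmb6. The genes were 6 of the 20S alpha ring, 7 constitutive genes of the 20S beta ring, 3 of the immunoproteasome, the thymus-type subunit gene Psmb11, 6 ATPases and 13 other subunits or cofactors of the 19S particle, 3 activators, the inhibitor gene Psmf1, 3 assembly chaperones and Psme3ip1. Psma3 and Psme3 are named only by clusters that also name other genes, and Psma8, Psmd10 and Psmg3 were not analysed here.

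Each of 12 Affymetrix Rat Gene 2.0 ST arrays held liver RNA of a single male obese Zucker rat, homozygous for the fa allele of the leptin receptor gene (fa/fa, Crl:ZUC-Leprfa). Feeding began at an age of 5 to 6 weeks and ended on day 29. Of the rats, drawn from feeding groups of 12, 6 had eaten the unsupplemented control diet and 6 a diet with 5% PSC, the labels' name for a supplement that the series title calls a biotechnologically produced oyster mushroom. All animals of both groups lacked a working leptin receptor, so lean rats were not part of the comparison. Housing was 2 per cage, and no label used here says which of these rats shared one.

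The proteasome is the chamber in which cells break down proteins that carry a ubiquitin tag. Its 20S core is a stack of alpha and beta rings, the catalytic sites lie on the beta subunits Psmb5, Psmb6 and Psmb7, and a 19S cap recognises, unfolds and feeds the substrate. Interferons, above all interferon gamma, induce the alternative catalytic subunits Psmb8, Psmb9 and Psmb10, which take the places of the constitutive ones in newly built cores and favour peptides for MHC class I. Hepatocytes express the constitutive form, and immune cells are rich in the immunoproteasome.

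The arrays had median log2 signals of 4.71 to 4.85 and correlated at 0.987 to 0.995 across genes, and the number of arrays limits the precision. PSC replicate 2 had the lowest mean correlation with the other arrays of its diet, 0.991, and was the lowest array in 15 of the 44 proteasome genes. Control replicates 2 and 6 were the highest in 11 genes each. Unlike every other array, PSC replicate 4 correlated more closely with the other diet, the controls (0.994), than with its own (0.992). Of 8 measured hepatocyte markers 0 passed the test of the diets (limma, lowest adjusted p = 0.320), against 2.60% of all genes tested. At unadjusted p below 0.05 there were 0, against 19.1%. The levels of these markers, with Alb at a mean of 13.16, fitted the label of liver.

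No proteasome gene passed the test between the diets. Of the 44 genes 0 passed the test (limma, Benjamini-Hochberg adjusted p below 0.05, n = 6 per diet), against 2.60% of all genes tested, of which 0.716% were higher and 1.89% lower in PSC-fed rats. At unadjusted p below 0.05 there were 4, with Psme4 higher and Psmd6, Psmg2 and Psmc4 lower, against 19.1% of all genes, 9.02% higher and 10.1% lower. The median log2 fold change of the 44 genes was -0.024, beside 0.013 over all genes tested and -0.032 over the 4259 genes with a mean log2 signal of 7 or more, and 20 genes had values above 0 and 24 below. The sign of this median depends on the scaling, as it was 0.017 after another quantile normalization of the arrays (25 above 0 and 19 below) and 0.013 with cyclic loess (26 and 18). The largest values were -0.25 for Psmb9 and 0.25 for Psmb11, each a fold of 1.19.

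The intervals, taken gene by gene without adjustment and under the deposited scaling, show how precisely each difference was measured. For 23 of the 44 the whole 95% interval of the log2 fold change lay within 0.2 of 0, for 37 within 0.3 and for 43 within 0.5. The median absolute log2 fold change was 0.052, beside 0.090 over all genes tested. The spread between rats of one diet was also small: the SD within diets had a median of 0.092 on the log2 scale, beside 0.142 over all genes tested and 0.108 over those with a mean log2 signal of 7 or more. Bulk liver cannot tell fewer cells of a type from less RNA per cell.

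**Figure D1:**
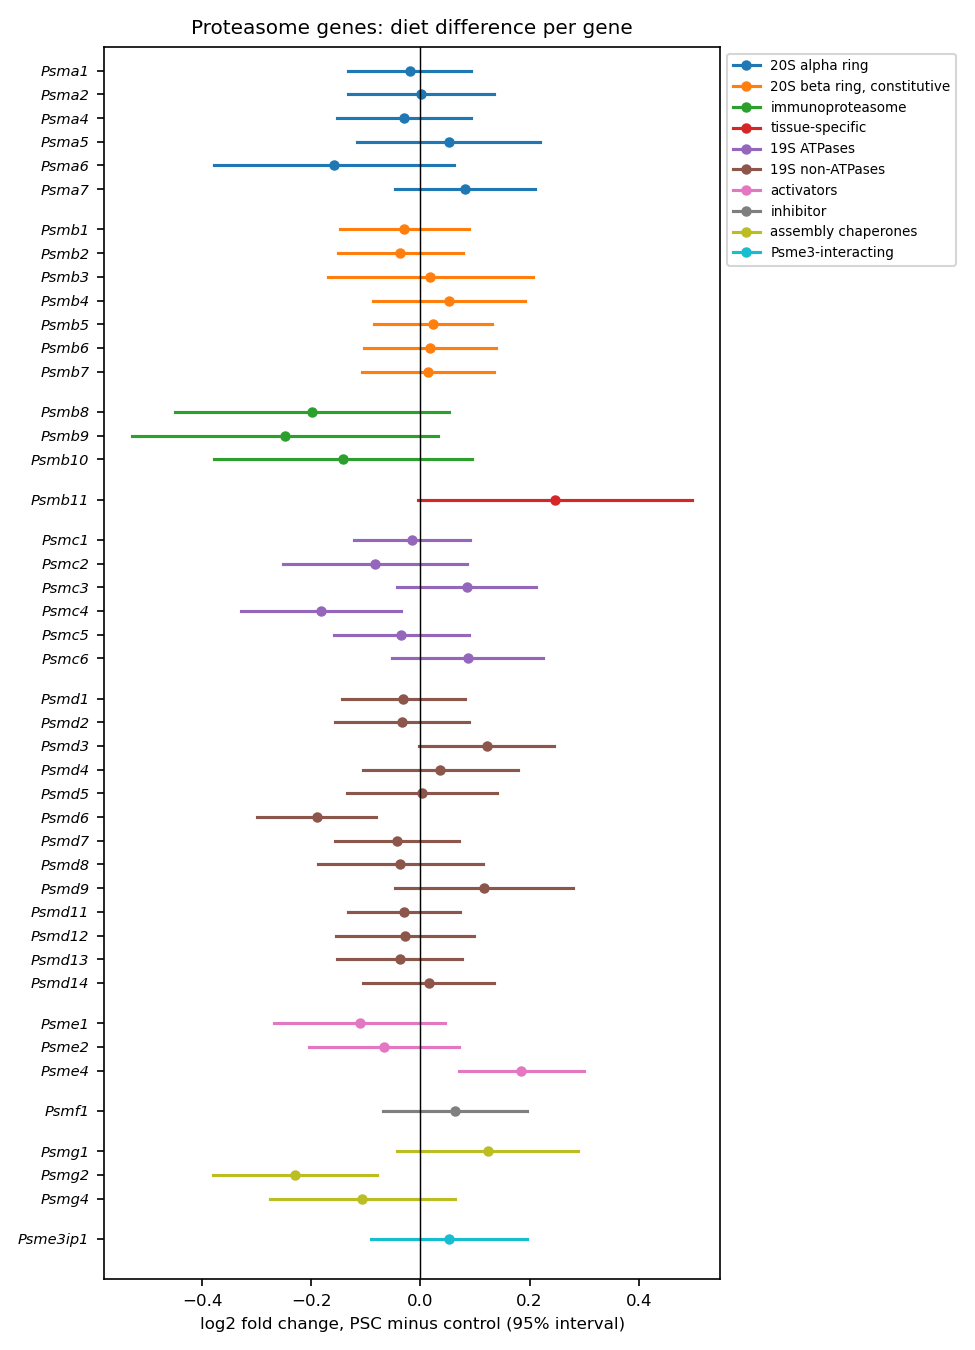
Log2 fold change of each of the 44 proteasome genes, PSC minus control, as points, with 95% intervals from the limma fit as lines (n = 6 per diet), coloured by role. Most intervals are narrow and span 0, the immunoproteasome genes have wider ones, and those of Psmd6, Psmc4, Psme4 and Psmg2 do not reach 0 before adjustment.

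The alpha ring, the gate of the core, gave values on both sides of 0. Its 6 measured genes had log2 fold changes of -0.16 to 0.08 with a median of -0.0092 (0.025 after another quantile normalization), and 0 passed (lowest adjusted p = 0.425, and 0 at unadjusted p below 0.05). Psma6 had the lowest of them. Its log2 signals ran from 7.90 over a median of 7.97 to 8.12 in controls and from 7.42 over 7.88 to 8.10 in PSC-fed rats. The groups overlapped, with 3 PSC arrays below every control, and PSC replicate 2 was the lowest. Without that array the value of -0.16 (SE 0.10, adjusted p = 0.425) became -0.075. Psma7 had the highest, 0.08 (SE 0.060, adjusted p = 0.483), and 0.047 without PSC replicate 2.

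The 7 constitutive beta genes lay close to 0, from -0.037 for Psmb2 to 0.052 for Psmb4, with a median of 0.018 (0 passed, lowest adjusted p = 0.699). Psmb5, which carries the chymotrypsin-like site, had log2 signals of 7.63 to 7.76 (median 7.69) in controls and 7.62 to 7.78 (median 7.74) in PSC-fed rats. For the caspase-like subunit gene Psmb6 they were 8.63 to 8.78 (median 8.67) and 8.57 to 8.78 (median 8.73). For the trypsin-like subunit gene Psmb7 they were 8.92 to 9.12 (median 8.985) and 8.89 to 9.11 (median 9.035). In each of these genes the diets overlapped almost completely. The log2 fold changes were 0.023 (95% interval -0.085 to 0.13), 0.018 (-0.10 to 0.14) and 0.013 (-0.11 to 0.13). The sign of Psmb7 is not settled, since its value was below 0 without control replicate 3 or without PSC replicate 2, where it reached -0.0060. The second, dimmer cluster of Psmb6 had 0.11 (SE 0.060, adjusted p = 0.332), in the same direction. Psmb6 lies on chromosome 10. The number of this second cluster (17647804) stands among those of chromosome 10 genes, and that of the kept cluster (17746374) among those of chromosome 2 genes. The values given for Psmb6, also in its pair with Psmb9 below, may thus be those of a copy, which was not tested.

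All 3 immunoproteasome genes had negative values, also under each of the 3 other scalings of the arrays, and none passed (lowest adjusted p = 0.320, and 0 at unadjusted p below 0.05). The 250 bases before their RefSeq starts (assembly GRCr8) are shown because these genes are the interferon-inducible arm of the family. Psmb5 and Psme4 follow as a constitutive catalytic subunit and an activator. Capitals mark matches on either strand to 2 motifs: GAAA repeated after a gap of 2 bases, the core of the interferon-stimulated response element, and TGACNNNGC, the core of the antioxidant response element, which the proteasome regulator NRF1 (Nfe2l1) binds.
Psmb8, chr20:4657032-4657281, minus strand: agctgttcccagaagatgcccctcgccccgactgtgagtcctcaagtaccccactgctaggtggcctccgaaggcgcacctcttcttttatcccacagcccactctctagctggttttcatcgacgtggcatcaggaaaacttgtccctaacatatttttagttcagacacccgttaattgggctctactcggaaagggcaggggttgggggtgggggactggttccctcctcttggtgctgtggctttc
Psmb9, chr20:4668750-4668999, plus strand: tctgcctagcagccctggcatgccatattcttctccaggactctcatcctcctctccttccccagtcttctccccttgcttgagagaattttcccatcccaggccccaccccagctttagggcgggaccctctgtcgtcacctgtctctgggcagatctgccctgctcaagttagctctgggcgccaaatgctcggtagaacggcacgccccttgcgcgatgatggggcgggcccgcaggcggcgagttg
Psmb10, chr19:50743293-50743542, minus strand: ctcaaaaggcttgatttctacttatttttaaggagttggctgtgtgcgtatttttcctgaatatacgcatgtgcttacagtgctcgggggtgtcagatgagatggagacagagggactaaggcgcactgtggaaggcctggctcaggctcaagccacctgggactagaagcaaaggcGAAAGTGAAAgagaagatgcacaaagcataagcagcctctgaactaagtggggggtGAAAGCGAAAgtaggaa
Psmb5, chr15:32047380-32047629, minus strand: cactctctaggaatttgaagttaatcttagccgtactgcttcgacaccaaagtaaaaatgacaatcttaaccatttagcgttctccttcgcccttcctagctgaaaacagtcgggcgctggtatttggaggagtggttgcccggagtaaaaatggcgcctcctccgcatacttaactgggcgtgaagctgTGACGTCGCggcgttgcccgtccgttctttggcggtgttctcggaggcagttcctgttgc
Psme4, chr14:108706393-108706642, plus strand: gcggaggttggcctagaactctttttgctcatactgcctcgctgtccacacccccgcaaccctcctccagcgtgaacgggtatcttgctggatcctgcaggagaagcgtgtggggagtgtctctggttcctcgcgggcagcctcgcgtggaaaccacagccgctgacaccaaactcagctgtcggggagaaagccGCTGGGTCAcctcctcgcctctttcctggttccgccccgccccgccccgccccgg

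Psmb10 held 2 matches to the interferon motif, beginning 73 and 17 bases before the start. Psmb8 and Psmb9 held neither motif, which says only that these letters are not in their windows. Psmb5 and Psme4 held 1 antioxidant motif each. Of the 44 genes 39 had a window, and Psma7, Psmb11, Psmd6, Psmd12 and Psmd14 had none. The interferon motif stood in 5 of the 39 (Psma4, Psmb3, Psme2, Psmb10 and Psmd7), or 12.8%, and in 3.09% of the 14564 windows of genes tested. The antioxidant motif stood in 6 (15.4%, against 11.3%), namely Psmb2, Psmd1, Psmb6, Psmd9, Psme4 and Psmb5. The CCAAT box (CCAAT, bound by NF-Y) stood in 17 of the 39 windows (43.6%, against 35.2%) and the GC box (GGGCGG) in 26 (66.7%, against 45.3%). A match is a description of the letters and no binding was measured. Within the shown windows no match of one marked motif overlapped another.

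Psmb8, which replaces Psmb5, had log2 signals of 8.24 to 9.13 (median 8.525) in controls and 8.24 to 8.57 (median 8.385) in PSC-fed rats. All PSC arrays lay within the range of the controls, and control replicate 6 stood above all other arrays. The log2 fold change was -0.20 (SE 0.12, 95% interval -0.45 to 0.052, adjusted p = 0.375), and it was -0.089 without control replicate 6. Psmb9, which replaces Psmb6, had 7.34 to 8.32 (median 7.84) in controls and 7.23 to 7.76 (median 7.63) in PSC-fed rats. Here control replicate 6 was again the highest, 1 PSC array lay below every control, and control replicate 2 was the lowest control. The difference was -0.25 (SE 0.13, 95% interval -0.53 to 0.032, adjusted p = 0.320), and it was -0.15 without control replicate 6. Psmb10, which replaces Psmb7, had 6.87 to 7.48 (median 7.27) in controls and 6.83 to 7.39 (median 7.015) in PSC-fed rats, with -0.14 (SE 0.11, adjusted p = 0.508), and -0.085 without control replicate 6. In the mean of the 3 genes, each centred over the 12 arrays, control replicate 6 stood at 0.54 and control replicate 2 at -0.26, while the PSC arrays ran from -0.29 to 0.13.

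**Figure D2:**
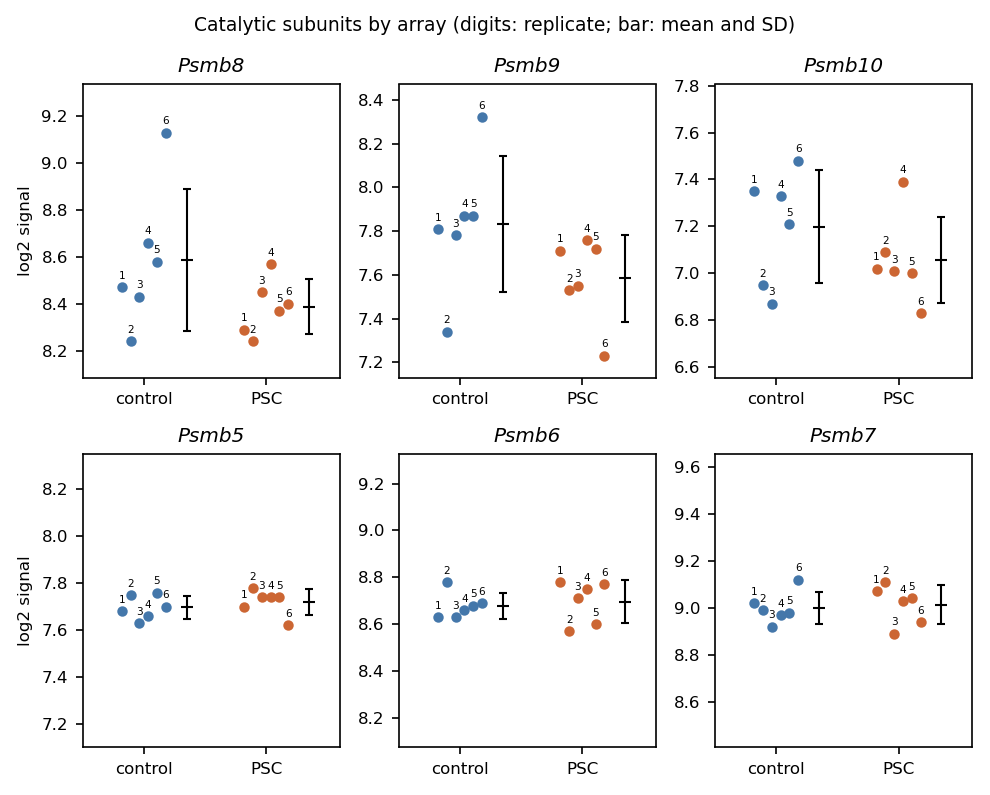
Log2 signal of the 3 immunoproteasome genes (top) and the 3 constitutive genes whose places they take (bottom) in each array, control on the left and PSC on the right, with replicate digits and the mean and SD as bars; every panel spans about the same number of log2 units. Control replicate 6 is the highest array for Psmb8, Psmb9 and Psmb10, and the constitutive genes vary little in either diet.

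To set the inducible against the constitutive subunits, the log2 signal of each constitutive gene was subtracted from that of its counterpart on the same array, which cancels shifts of the whole array. The difference between Psmb8 and Psmb5 averaged 0.89 ± 0.31 under the control diet and 0.67 ± 0.14 under PSC (SD, n = 6), a shift of -0.22 (95% interval -0.53 to 0.088, exact two-sided permutation p = 0.143 over all assignments of the arrays to the diets). Between Psmb9 and Psmb6 it averaged -0.85 ± 0.34 and -1.11 ± 0.23, a shift of -0.27 (interval -0.64 to 0.11, exact permutation p = 0.165). Between Psmb10 and Psmb7 it averaged -1.80 ± 0.19 and -1.96 ± 0.17, a shift of -0.155 (interval -0.39 to 0.082, exact permutation p = 0.193). Adjusted over these 3 pairs each p was 0.193, so an unequal change of the 2 kinds of subunit was not shown at this number of rats, and the intervals reach down to -0.53, -0.64 and -0.39. These differences measure a shift between diets; they do not rank the abundance of the genes, whose probes differ.

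The outcome of the pair test depended on single control arrays. Without control replicate 2, the lowest control for Psmb8 and Psmb9, the first pair gave -0.30 (exact permutation test, adjusted p = 0.0390) and the second -0.39 (adjusted p = 0.0130), and the third, at -0.20, had adjusted p = 0.117. Without control replicate 6, the highest, they were -0.11, -0.17 and -0.12 (exact permutation test, each with adjusted p = 0.329). The mean over the 3 pairs was -0.21, and ran from -0.30 to -0.14 when single arrays were left out.

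The inducible genes were also among the most variable members between rats of one diet. Psmb9, Psmb8 and Psmb10 ranked 1, 3 and 4 of the 44 for SD within diets, at 0.26, 0.23 and 0.21, with Psmb11 ranked 2 at 0.23. The 7 constitutive beta genes had a median of 0.075. The SD of Psmb8 was 0.30 under the control diet and 0.12 under PSC, and that of Psmb9 0.31 and 0.20, a difference that was not tested. Psmb11, the beta subunit that the thymus uses, had dim signals of 3.76 to 4.54 in controls and 4.10 to 4.60 in PSC-fed rats, and differed by 0.25 (SE 0.12, adjusted p = 0.270). No detection call was used here, so whether its signal exceeds background was not determined. Its gene is the direct neighbour of Psmb5 in the RefSeq order on chromosome 15.

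**Figure D3:**
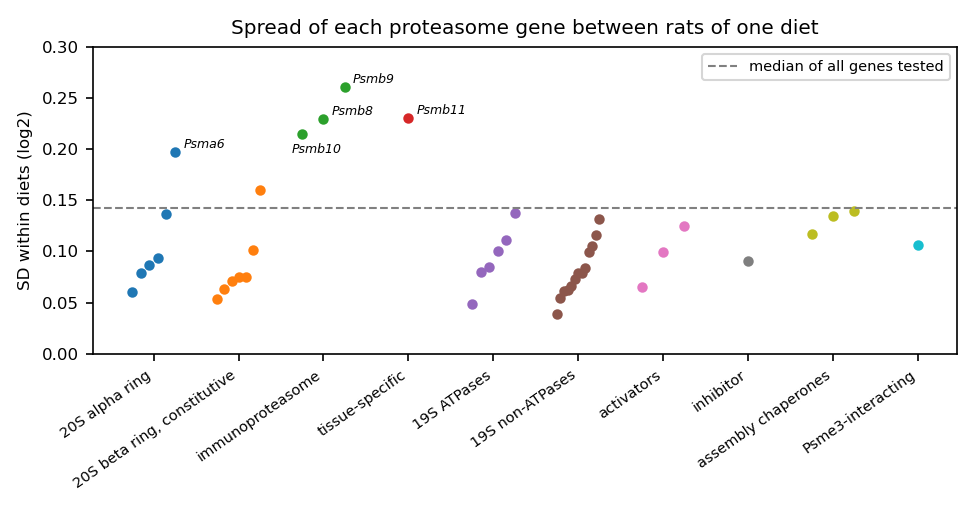
SD of the log2 signal between rats of one diet (pooled over both diets) for each of the 44 genes, grouped by role, with the median of all genes tested, 0.142, as a dashed line. The 3 immunoproteasome genes, Psmb11, Psma6 and Psmb3 lie above the line and the other 38 genes below it.

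Among the 19S genes, which recognise and unfold the substrate, Psmd6 had the smallest p of the 44 members. This lid subunit (transcript cluster 17697491) had log2 signals of 8.13 to 8.33 (median 8.245) in controls and 7.99 to 8.08 (median 8.05) in PSC-fed rats. All 6 PSC arrays lay below every control, as in 1 of the 44 genes against 2.19% of all genes tested. The means were 8.24 ± 0.067 and 8.05 ± 0.037 (SD, n = 6), and the Psmd6 log2 fold change was -0.19 (SE 0.051, limma adjusted p = 0.0603), a fold of 1.14. With genes of mean log2 signal below 4 left out its adjusted p was 0.0375. With a robust variance prior with trend it was 0.0314, and without single arrays 0.0612 to 0.125. The median of the 13 genes of this group was -0.030, or 0.0069 after another quantile normalization. The other 12 genes ran from -0.043 to 0.12. They were led by Psmd3, also of the lid, at 0.12 (SE 0.058, adjusted p = 0.268), in which the PSC arrays lay between 8.37 and 8.45 and all controls but replicate 2 at 8.31 or below.

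Of the 6 ATPases that form the base of the cap, Psmc4 was lower in 5 of 6 PSC arrays than in every control. Its log2 signals were 8.26 to 8.48 (median 8.375) in controls and 8.06 to 8.41 (median 8.165) in PSC-fed rats, where PSC replicate 5 lay among the controls. The log2 fold change was -0.18 (SE 0.069, adjusted p = 0.166). Psmc6 had the highest value of the ATPases, 0.087 (SE 0.065, adjusted p = 0.487, and 0.050 without control replicate 6), and the median of the 6 was -0.025, or 0.023 after another quantile normalization.

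The activators are caps that take the place of the 19S particle. Psme4 (transcript cluster 17692238), which encodes PA200, an activator known for its part in histone breakdown, had log2 signals of 8.85 to 9.03 (median 8.895) in controls and 8.98 to 9.15 (median 9.115) in PSC-fed rats. Of the PSC arrays 5 lay above every control and PSC replicate 2 within their range. The log2 fold change was 0.185 (SE 0.054, limma adjusted p = 0.0795), and the adjusted p was 0.0391 with a robust variance prior with trend. Psme1 and Psme2, the interferon-inducible subunits of PA28, had values of -0.11 (SE 0.074, adjusted p = 0.431) and -0.067 (SE 0.065, adjusted p = 0.601). Without control replicate 2 these were -0.17 and -0.10, and Psme2 was -0.033 without control replicate 1 and -0.041 without PSC replicate 4. The Psme2 log2 fold change thus rested on single arrays. Psme1 ran from 7.76 to 8.18 in controls and from 7.77 to 8.03 in PSC-fed rats, and Psme2 from 9.25 to 9.60 and from 9.24 to 9.46. The lowest control array for both was replicate 2, as for Psmb8 and Psmb9. Their genes lie near each other on chromosome 15 with 1 gene between them. Psmf1, which encodes the inhibitor PI31, had 0.063 (SE 0.062, adjusted p = 0.602, and 0.033 without PSC replicate 5), and Psme3ip1, which encodes a partner of the third PA28 subunit, had 0.052 (SE 0.067, adjusted p = 0.707).

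The assembly chaperones gave values in both directions. Psmg2, which with Psmg1 helps to build the alpha ring, had log2 signals of 5.44 to 5.67 (median 5.58) in controls and 5.07 to 5.44 (median 5.40) in PSC-fed rats. Of the PSC arrays 5 lay below every control, with PSC replicate 2 the lowest and PSC replicate 5 level with the lowest control. The log2 fold change was -0.23 (SE 0.071, adjusted p = 0.0946). Its partner Psmg1 had 0.12 (SE 0.078, adjusted p = 0.407), and the Psmg1 log2 fold change was 0.073 without control replicate 6, the lowest control, and 0.082 without PSC replicate 1. Psmg4 had -0.11. With Psmd6 and Psme4, Psmg2 made 3 of 44 genes at an adjusted p below 0.1, against 6.28% of all genes tested.

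**Figure D4:**
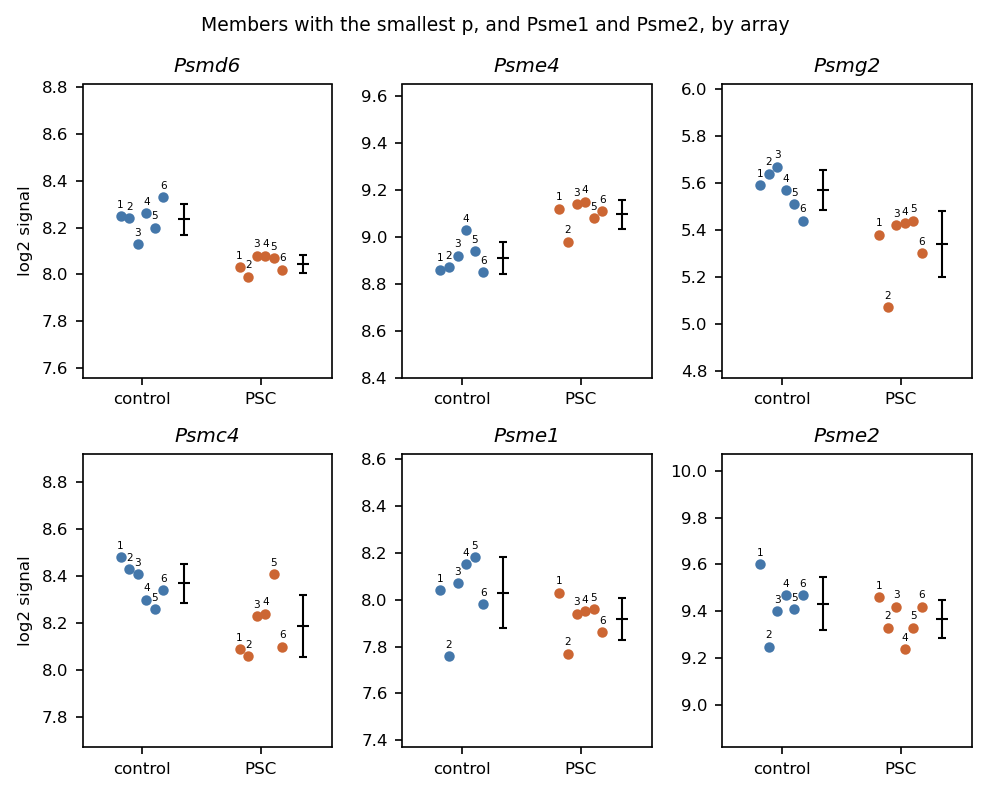
Log2 signal in each array of the 4 members at unadjusted p below 0.05 (Psmd6, Psme4, Psmg2 and Psmc4) and of Psme1 and Psme2, control on the left and PSC on the right, with replicate digits and the mean and SD as bars. The diets are separate for Psmd6 and overlap in the other 5 genes.

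None of the measured partners of the proteasome or genes of ubiquitin supply passed the test. Of 21 measured partners, assembly factors and adaptors 0 passed (limma, lowest adjusted p = 0.0975), against 2.60% of all genes tested. At unadjusted p below 0.05 there were 1 higher and 1 lower, against 9.02% and 10.1%, and the median was -0.050. Ddi2 encodes the protease that activates the proteasome gene regulator NRF1. Its log2 signals were 7.95 to 8.23 in controls and 8.24 to 8.45 in PSC-fed rats. The diets were thus narrowly without overlap, as were 2.19% of all genes tested. The Ddi2 log2 fold change was 0.205 (SE 0.064, adjusted p = 0.0975). Nfe2l1, the gene of NRF1 itself, had -0.12 (SE 0.062, adjusted p = 0.306). Ngly1, which removes sugar chains from NRF1, had -0.145 (SE 0.060, adjusted p = 0.202), and Usp14, a deubiquitinase of the cap, -0.14 (SE 0.067, adjusted p = 0.271). In ubiquitin supply 0 of 7 passed, also at unadjusted p below 0.05, which 19.1% of all genes tested met. The median was -0.038 (0.012 after another quantile normalization), with -0.125 for the conjugating enzyme gene Ube2d1, -0.077 for the activating enzyme gene Uba1 and -0.080 for Uba6.

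The measured genes of class I antigen presentation, which supplies peptides to MHC molecules, all had negative values, also under each of the 3 other scalings. In the order of RefSeq genes on GRCr8, Psmb8 lies between the peptide transporter genes Tap2 and Tap1, and Psmb9 lies next to Tap1. Of 11 measured class I genes 11 had values below 0, from -0.32 to -0.017 with a median of -0.17, where 46.1% of all genes tested and 61.7% of those with a mean log2 signal of 7 or more had values below 0. Without control replicate 1 there were 10 of 11. At unadjusted p below 0.05 there were 5 (Tap1, Tap2, Tapbp, Tapbpl and Erap1), all lower, against 10.1% of all genes tested. With adjustment over all genes 0 passed (limma, lowest adjusted p = 0.0755), against 2.60% of all genes tested. Tapbp, which encodes tapasin, had 8.27 to 8.84 in controls and 8.03 to 8.40 in PSC-fed rats, a difference of -0.32 (SE 0.091, adjusted p = 0.0755). Tap2 had 7.00 to 7.41 and 6.58 to 7.07, a difference of -0.30 (SE 0.085, adjusted p = 0.0759). Without single arrays the adjusted p ran from 0.0314 to 0.151 for Tapbp, which passed without control replicate 2, and from 0.0314 to 0.137 for Tap2, which passed without PSC replicate 4. Both passed with a robust variance prior with trend. There the adjusted p of the Tapbp log2 fold change was 0.0449 and that of the Tap2 log2 fold change 0.0498. Erap1, the peptide trimming enzyme gene, had -0.17 (SE 0.057, adjusted p = 0.130). In the centred mean of the 11 genes the PSC arrays ran from -0.16 to -0.020, and 5 controls lay above them, while control replicate 2 lay at -0.065.

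Upstream, 1 of 13 measured genes of interferon signalling passed, against 2.60% of all genes tested. Ifngr2, the signalling chain of the interferon gamma receptor, averaged 7.56 ± 0.13 under the control diet and 7.15 ± 0.18 under PSC (log2 signal ± SD, n = 6), with the highest PSC array at 7.37 and the lowest control at 7.36. It fell by 0.41 (SE 0.088, limma adjusted p = 0.0267). With 1 array left out it missed the threshold in 6 of 12 fits, namely those without control replicate 1, where the adjusted p was highest at 0.0699, without control replicates 4 or 6, and without PSC replicates 1, 5 or 6. Ifngr1, the ligand-binding chain, had -0.19 (SE 0.070, adjusted p = 0.149), the transcription factor gene Irf8 0.20 (SE 0.094, adjusted p = 0.261) and the ligand gene Ifng, at a dim 3.84 and 3.98, 0.15 (SE 0.10, adjusted p = 0.443). At unadjusted p below 0.05 there were 1 higher and 2 lower in this list, against 9.02% and 10.1% of all genes tested. The median of the list was 0.012, or -0.012 after another quantile normalization.

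**Figure D5:**
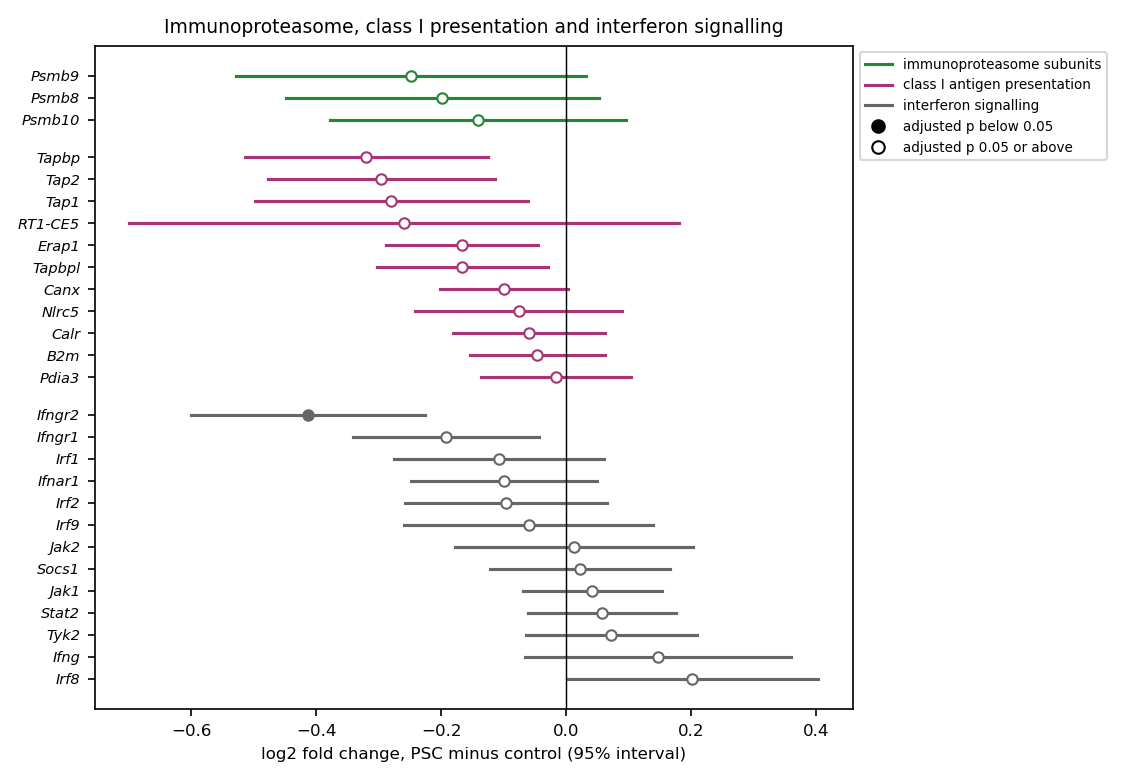
Log2 fold change, PSC minus control, with 95% intervals, of the 3 immunoproteasome genes, 11 class I presentation genes and 13 interferon signalling genes (n = 6 per diet); filled points passed an adjusted p of 0.05 over all genes. All 14 values of the first 2 groups are below 0, and Ifngr2 is the filled point.

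Markers of other liver cells were read beside these values, because immune cells are rich in the immunoproteasome. Over all genes tested 0.716% passed as higher and 1.89% as lower, and at unadjusted p below 0.05 the shares were 9.02% and 10.1%. Of 16 measured lymphocyte markers 1 rose (Nkg7) and 0 fell, with 8 higher at unadjusted p below 0.05 and a median of 0.13. Of these markers 13 had values above 0, and 11 did after another quantile normalization. Their centred mean ran from -0.15 to -0.033 in controls and from 0.0084 to 0.14 in PSC-fed rats. Of 15 macrophage markers 1 rose (Cd163) and 0 fell, with 9 higher at unadjusted p below 0.05, a median of 0.33 and centred means of -0.68 to 0.088 against -0.035 to 0.33. The lowest of these is control replicate 1, and the next control stood at -0.25. Without control replicate 1 the macrophage median was 0.20, with 7 higher at unadjusted p below 0.05 and 1 passing. Without single arrays Nkg7 missed the threshold in 4 of 12 fits (control replicates 1 and 6, PSC replicates 5 and 6) and Cd163 in 8 of 12 (control replicates 3 to 6, PSC replicates 1, 3, 5 and 6). Of 9 stellate cell markers 3 fell and 0 rose (median -0.30, means of 0.061 to 0.30 against -0.30 to 0.11), of which Col1a2 and Dcn passed in 12 of 12 fits without 1 array and Col3a1 missed the threshold in 10 (all but those without control replicate 2 or PSC replicate 4). Of 5 endothelial markers 0 passed (limma, lowest adjusted p = 0.0796, with 1 higher and 1 lower at unadjusted p below 0.05). Of 6 bile duct markers 1 fell (Spp1) and 0 rose. Spp1 missed the threshold in 4 of 12 fits, without control replicates 1 or 4 or PSC replicates 1 or 6. Of the 6 markers 3 had values above 0, and 1 did after another quantile normalization. In the lymphocyte list Cd3g, Cd3e and Cd3d averaged 2.87, 3.05 and 3.24 over the 12 arrays, with log2 fold changes of -0.012, 0.013 and 0.065. The means of Cd2, Cd8a, Lck and Cd5 were 3.86, 4.57, 4.63 and 5.35. Their log2 fold changes were -0.0050, 0.185, 0.020 and 0.083. Cd4 had a mean of 8.40 and a log2 fold change of 0.0067, and which cells gave its signal was not tested. Among these genes only Cd8a had a limma unadjusted p below 0.05. The part of the cells of these marker lists in the immunoproteasome values was not tested.

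Close copies limit some of the values. The array annotation or RefSeq also holds copies or pseudogenes of Psmb3, Psmb6, Psma6, Psmd1 and Psmg4, whose transcripts may bind the same probes.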

How the data were processed

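The authors summarised each array with RMA in Expression Console, according to the submitters' processing notes, and deposited log2 signals, 1 per transcript cluster. No source used here gives versions or filters. RMA makes array distributions nearly equal and compresses changes of dim genes. Of 30347 clusters 18511 name 1 gene symbol in the platform annotation. The brightest cluster per gene gave 18166 genes, and all 44 members matched RefSeq (GRCr8) by gene number.

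Diets were compared per gene with limma 3.58.1 in R 4.3.3 (two-sided, Benjamini-Hochberg over all genes, threshold 0.05), with intervals from the moderated fit. Pair differences were tested by exact permutation (scipy 1.17.1). The members and lists were chosen with earlier results of these data known. Genes given by name are the catalytic and regulatory members, the extremes and smallest p of each role, and the pathway genes with the smallest p. Psmg4, Psmd14, Nfe2l1, Tap1, Tapbpl, Alb, Nkg7, Cd163, Spp1, Col1a2, Col3a1 and Dcn were added after their values were seen. So were the lymphocyte list genes Cd3d, Cd3e, Cd3g, Cd2, Cd5, Cd4, Cd8a and Lck. No label used here says that replicate numbers pair the rats, and the main fit did not pair them. On simulated data over 18166 genes, with independent noise per gene, the test recovered 81% of 100 changes of 0.5 on the log2 scale. It recovered 98% of 100 changes of 1, and 12 of its 191 calls (6.28%) were false. Changes as small as those of the members were not simulated.

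Alternatives were a filter on dim genes, quantile, median and cyclic loess scaling, array weights and a variance prior that was both trended and robust. Others were the replicate block, other cluster choices, a threshold of 0.1 and leaving out each array. Leaving out PSC replicates 2 and 5 together was chosen after seeing the data.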

Additional observations from a re-analysis of the deposited data

Results flagged for a closer look

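In 94 groups of 6 values (44 genes and 3 pair differences in each diet), 2 held an array far from the others, where chance flags about 1 in 20 groups. Psmg1, the assembly chaperone gene, was lowest in control replicate 6, at 7.44 against 7.70 for the next control. Psmd14, which encodes the deubiquitinase of the 19S lid, was lowest in PSC replicate 2, at 7.67 against 7.83 for the next PSC array.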

How the results depend on the processing

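The count of members past the threshold stayed at 0 in 20 of 23 alternatives. It was 1 (Psmd6, of the 19S particle) with dim genes left out. With a robust variance prior with trend it was 2 (Psmd6, and Psme4 of the activators, 1 each). At an adjusted p below 0.1 it was 3, where Psmg2, 1 assembly chaperone, joined them. The count at unadjusted p below 0.05 was 4, 7 after another quantile normalization and 4 to 8 without single arrays, with 8 without control replicate 2. The median of the members went from -0.024 to 0.017 after another quantile normalization and to 0.013 with cyclic loess, so its sign depends on the scaling, and it was -0.029 to -0.0018 without single arrays. Psmb7 was -0.018 without PSC replicates 2 and 5 together, and -0.0060 to 0.038 without single arrays. Pair differences were -0.30 to -0.11 for Psmb8 and Psmb5 and -0.39 to -0.17 for Psmb9 and Psmb6, and -0.22 to -0.12 for Psmb10 and Psmb7, without single arrays, with adjusted p of 0.0390 and 0.0130 without control replicate 2. Deviations of same-numbered rats correlated above 0.1 in 1 of 6 pairs, and 2 of 12 arrays lay closest to their own number. These values cannot exclude that same-numbered rats shared a cage or batch. With the replicate block 0 members passed, 3 had unadjusted p below 0.05, none of the 3 pair tests passed, and all genes tested gave 16 higher and 78 lower calls, against 130 and 343 without it. Tapbp and Tap2 missed the threshold with the block, and Ifngr2 missed it with the block and without PSC replicates 2 and 5 together. Higher and lower calls over all genes were 29 and 113 without control replicate 1 and 192 and 543 without PSC replicate 4. Leaving out 1 array moved the value of 36 of 44 members by over 1.5 times in at least 1 fit, among them 0 of the 4 with unadjusted p below 0.05. The 6 arrays per diet limit what could be called: for 7 of 44 members the interval reached beyond 0.3.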
